A study of Mus musculus with 51 samples.

Results

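Cultured Myc-CaP cells carrying a guide RNA against Uba1 were compared with cells carrying a control guide RNA in bulk RNA-seq. Membership followed the sample labels alone and took 8 of the 51 libraries of the series. Myc-CaP is a mouse prostate cancer line from a mouse with a MYC transgene, and the labels call the cells epithelial. The control cells (NC, labelled WT) and the sgUba1 cells (labelled Uba1-depletion) each gave 2 libraries after PBS and 2 after IFN-γ, so 4 sgUba1 libraries stood against 4 controls. The study's legend gives IFN-γ at 1 ng/mL for 18 h. Per the study's methods, both kinds of cells went through CRISPR transfection and puromycin, and sublines were grown out from single cells. The labels do not say which guide the sgUba1 cells carried, how many sublines were sequenced, or whether R1 and R2 were separate cultures. The p-values below therefore measure the spread between these libraries, which may be technical, and an effect of the guide and a difference between single-cell sublines cannot be told apart.

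UBA1 is the main E1 enzyme of the ubiquitin system. It activates ubiquitin with ATP and hands it to E2 enzymes, which work with E3 ligases to tag proteins, many of them for the proteasome. UBA6 is the other E1 for ubiquitin, and further E1 enzymes serve ubiquitin-like proteins such as ISG15 and NEDD8. TAK-243, used on Myc-CaP cells in another experiment of the series, is a drug that blocks UBA1.

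The study lists 2 guides against Uba1 and 1 control guide, shown here because they define the comparison. Capitals mark the protospacer-adjacent motif in the genome next to each target, which Cas9 needs and which is not part of the guide.
sgUba1 #1: taccaatgtcctcctcccgaAGG
sgUba1 #2: tagccgtggtatcaagctagTGG
Control: acgtgtaaggcgaacgcctt
On GRCm38 the target of sgUba1 #1 lay at chrX:20669136-20669155 on the minus strand, in coding sequence of exon 5 of 26. That of sgUba1 #2 lay at chrX:20670263-20670282 on the plus strand, in coding sequence of exon 6 of 26. The exons are those of the transcript ENSMUST00000089217.10. The control guide matched 0 of the 6 annotated Uba1 transcripts.

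Total counts ran from 26768450 to 38032284 per library. Libraries of a group differed by more than counting error, and the ratio of chi-square to degrees of freedom went from 2.31 for the controls with IFN-γ up to 18.1 for the PBS controls, the pair lying farthest apart. Vim, a mesenchymal gene, was at 590 to 809 CPM (counts scaled to library size, with TMM factors). The epithelial genes Epcam and Cdh1 did not exceed 0.310 CPM in any of the 8 libraries, and the luminal gene Pbsn had 0 counts, so defining markers of the labelled cell type were at or near 0. Ptprc, Cd3e, C1qa, Cdh5 and Dcn, which mark leukocytes, T cells, macrophages, endothelium and fibroblasts, had at most 3 counts in a library. Summed erythroid markers were at 0.468 to 0.817 CPM in the controls and 4.85 to 5.47 CPM in sgUba1 cells, most of it from the haemoglobin gene Hba-a1, while 3 of the 7 markers were at 0 throughout. Their part in the results was not tested. Summed T and NK cell markers overlapped between the arms (3.96 to 8.30 and 4.77 to 5.84 CPM). In bulk RNA, fewer cells of a type and less RNA per cell cannot be told apart.

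Uba1 itself was measured first. Its level was 533 and 526 CPM in the PBS controls and 585 and 600 CPM in the IFN-γ controls. In sgUba1 cells it was 295 and 283 CPM with PBS and 269 and 275 CPM with IFN-γ. Every sgUba1 library lay below every control, and transcripts of the gene were still present in all 4. The log2 fold change was −0.999 (SE 0.054, adjusted p = 6.77e-08, edgeR quasi-likelihood test with IFN-γ as a covariate and Benjamini-Hochberg adjustment). RNA does not show how much of it encodes an intact protein. Of the 16 other genes tested within 2 Mb of Uba1, 3 rose and 3 fell, and the 14 with a mean log2 CPM of at least 1 had a median log2 fold change of 0.08. The largest of these changes was in Usp11, a deubiquitinase gene, which had 2.65, 2.87, 2.99 and 2.81 CPM in the controls and 1.13, 0.903, 1.21 and 0.502 CPM in the sgUba1 cells. It fell by 1.60 on the log2 scale (SE 0.214, adjusted p = 8.54e-05) without overlap between the arms, whereas Timp1 was at −0.32 and Rp2 at 0.24, and Araf and Cdk16 were not called (log2 fold changes 0.07 and 0.08).

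In the fit across 15530 genes, 6007 (38.7%) had an adjusted p under 0.05, 2912 of them higher in sgUba1 cells (18.8%) and 3095 lower (19.9%). These shares are the background for every list below. Most of the called changes were small. Their median size was 0.34 on the log2 scale, and 398 genes rose and 174 fell by at least 2-fold. Changes of at least 8-fold were seen in 79 genes that rose and 17 that fell. The direction was the same with PBS and with IFN-γ for 5999 of the 6007 genes. These genes were picked by a fit over both treatments, so a shared direction largely follows from the choice. Taken within each treatment, 3447 of them were called with the same sign in both. In 6264 genes (40.3%) the sgUba1 and control libraries did not overlap in each treatment, 20.5% higher and 19.8% lower.

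The other E1 genes did not move as a group. Of 11 E1 genes tested, 1 rose and 3, Uba1 included, fell. Uba7, the E1 for ISG15, was at 0.221 and 0.196 CPM in PBS controls and 0.821 and 0.798 CPM in IFN-γ controls, against 0.677, 0.395, 2.96 and 3.52 CPM in sgUba1 cells. It rose by 1.84 (SE 0.230, adjusted p = 5.20e-05) and was higher within each treatment, at a low level throughout. Uba6 had a log2 fold change of 0.01 (SE 0.047, adjusted p = 0.882). Uba3, of the NEDD8 E1, fell by 0.15 (adjusted p = 0.0198), a call lost without sgUba1 PBS replicate 1 (0.063), sgUba1 PBS replicate 2 (0.161) or sgUba1 IFN-γ replicate 2 (0.0786). Mocs3 fell by 0.74 (adjusted p = 0.00976). Against their chromosome neighbours, a step described below, Uba3 (−0.04) and Mocs3 (−0.37) were not called, and Uba6 was at 0.23 (adjusted p = 0.0032).

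Ubiquitin, E2 and proteasome genes showed small changes in both directions. The polyubiquitin gene Ubb was not called, with a log2 fold change of −0.04 (adjusted p = 0.537). Among 34 E2 genes 11 rose and 9 fell. Ube2e1 rose by 0.78 (adjusted p = 1.34e-06) and Ube2h by 0.42 (adjusted p = 4.31e-05), while Ube2c, which works with the anaphase-promoting complex, fell by 0.65 (adjusted p = 5.20e-07). Of 41 proteasome subunits 10 rose and 12 fell, with a median log2 fold change of 0.01. The subunits Psma7 (−0.46, adjusted p = 4.37e-06) and Psmc3 (−0.43, adjusted p = 4.4e-05) lie on chromosome 2, and Psma6 (0.35, adjusted p = 1.28e-04) and Psma3 (0.32, adjusted p = 1.64e-04) lie on chromosome 12. Chromosome 2 was shifted from end to end and chromosome 12 over most of its length, as described next.

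Neighbouring genes moved together along parts of 7 chromosomes. Expressed genes were taken in windows of 40 in gene order, and 9 runs of at least 2 adjacent windows had a median of 0.15 or more, in either direction, on the log2 scale. The runs held 22.4% of the tested genes. Of the genes inside them 57.3% were called, against 33.3% outside. The 5 lower runs held 15.6% of the tested genes and 43.5% of all genes that fell. The runs were picked by these same fold changes, so larger shares of calls inside them follow from the choice.

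Chromosome 2 was lower from end to end, with a median of −0.33 and 660 of 1225 tested genes called lower. On chromosome 5 the first run, from 3341485 to 36989205 on GRCm38, was higher (0.28) and the second, from 76529311 to 151651242, lower (−0.34). The strongest shift was on chromosome 15 from 65787034 to 83510893, with a median of −0.53 and 139 of 201 genes lower. Chromosome 12 was higher over most of its length (0.24), chromosome 16 had 2 higher runs (0.18 and 0.23), and parts of chromosomes 7 (−0.27) and 11 (−0.19) were lower. All 4 sgUba1 libraries carried each shift. In the run on chromosome 15, their medians against the mean of the controls were −0.47, −0.49, −0.56 and −0.54, and those of the controls were −0.05 to 0.06.

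**Figure D1:**
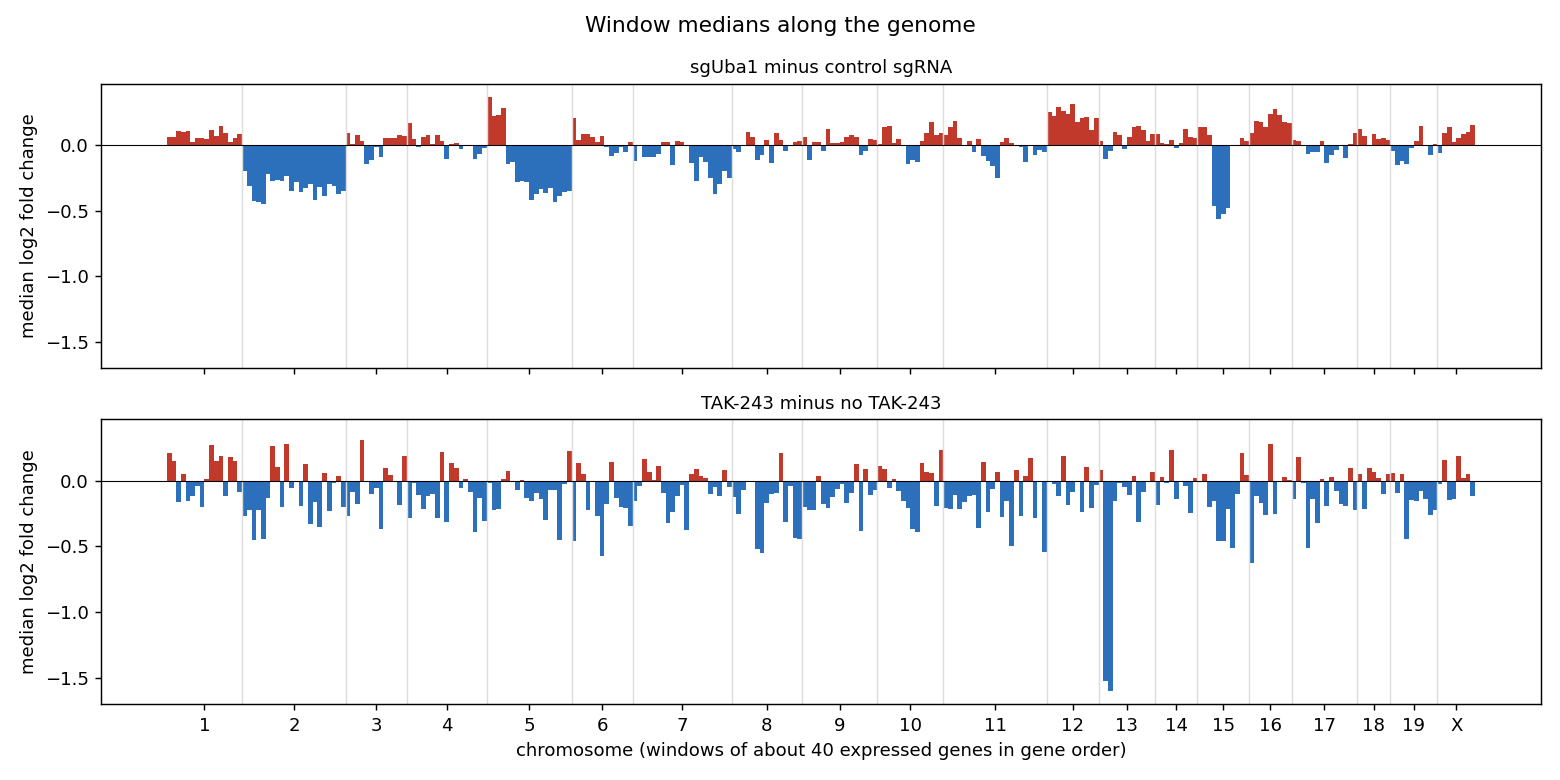
Median log2 fold change (vertical axis) of windows of about 40 expressed genes in gene order along each chromosome (horizontal axis), for sgUba1 against control cells (top) and for TAK-243 against no TAK-243 (bottom); red is higher and blue lower. In sgUba1 cells whole stretches shift together, such as chromosome 2 (median −0.33) and part of chromosome 15 (−0.53), whereas the TAK-243 windows mix both signs on most chromosomes and have a low stretch on chromosome 13.

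The shifts were also read in other libraries. TAK-243-treated cells had medians of −0.11 on chromosome 2, −0.05 in the run on chromosome 12 and −0.36 in that on chromosome 15. Over all expressed genes their median was −0.09. Set against untreated Myc-CaP cells of the TAK-243 experiment, a separate experiment whose batch cannot be told apart from the line, the control line was at 0.30 on chromosome 2 and the sgUba1 line at 0.02. For chromosome 12 the order was the other way, at 0.01 in the control line and 0.22 in the sgUba1 line. For the run on chromosome 15 the values were 0.01 and −0.41. The line that stood apart from untreated cells thus differed between chromosomes. Copy number was not measured, and its part in these shifts was not tested.

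Each gene was then centred on the median of 30 expressed genes on either side, a step chosen after the data were seen. This left 4635 genes called (29.8%), 2484 higher (16%) and 2151 lower (13.9%), of which 3780 were among the original 6007. Of the 572 genes changed by at least 2-fold, 548 (95.8%) were still called. Of the 4327 called genes that changed by less than 0.5 on the log2 scale, 2274 (52.6%) were called in the same direction. Among the proteasome genes 6 were higher and 2 lower.

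**Figure D2:**
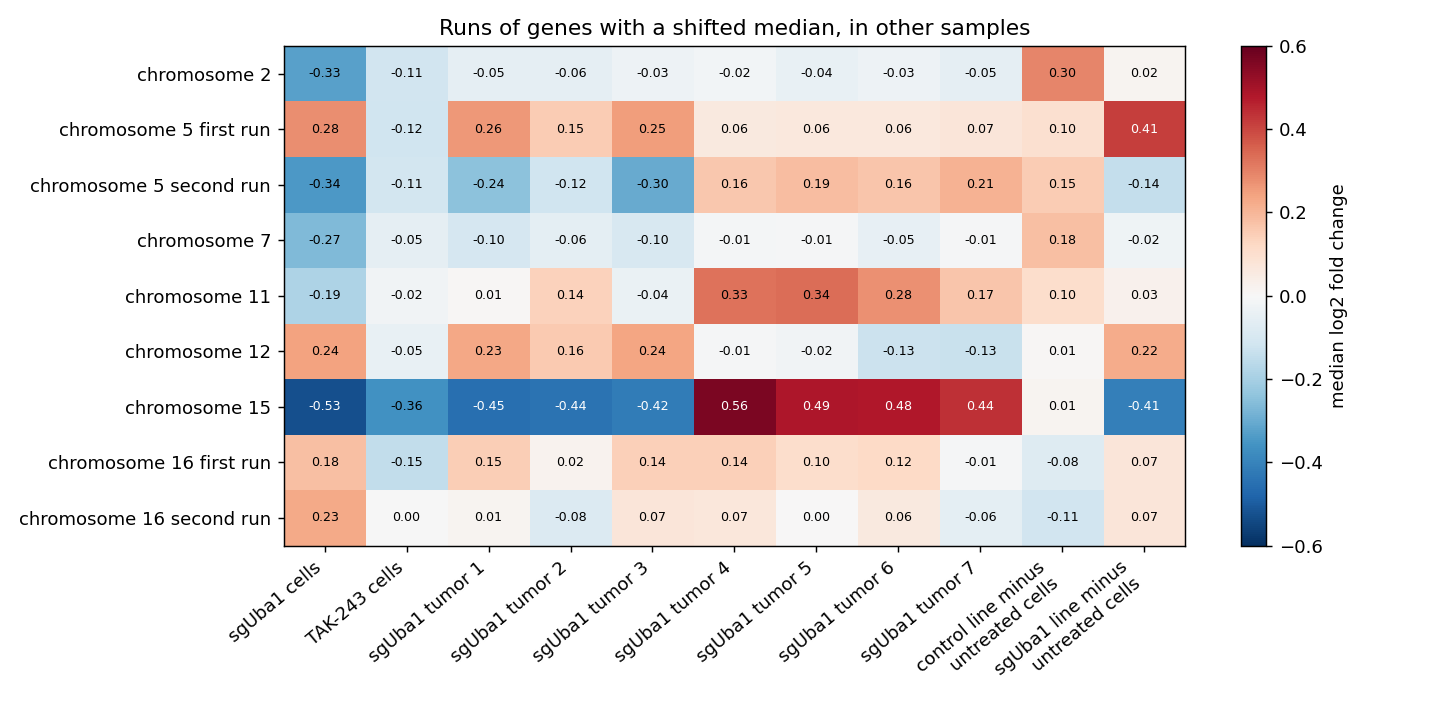
Median log2 fold change of the genes of each of the 9 runs (rows) in sgUba1 cells against control cells, in TAK-243-treated cells, in each of 7 Myc-CaP tumors labelled sgUba1 against 3 control tumors, and in the control and sgUba1 lines without IFN-γ against untreated cells of another experiment; red is higher and blue lower. The run on chromosome 15 is at −0.53 in sgUba1 cells, between −0.45 and −0.42 in tumors 1 to 3 and between 0.44 and 0.56 in tumors 4 to 7.

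The largest changes were genes present in one line and close to absent in the other. With a mean under 0.5 CPM in one arm and at least 3 CPM in every library of the other, 15 genes were on and 2 were off in sgUba1 cells. Muc16, a membrane mucin of epithelia, had 0 counts in all 4 controls and 7.59, 7.02, 5.70 and 5.83 CPM in sgUba1 cells. This was at least 270.9-fold higher, taking 3 counts over the control group as the floor. Tmcc3 had 2 counts in all the controls and 679 in the sgUba1 libraries, a ratio of 295.1 (95% exact interval 81.4 to 2442, counting error only). Pof1b, an epithelial actin-binding protein, and Grb7, an adaptor of receptor tyrosine kinases, each had 3 counts in the controls. Their ratios were 199.9 (68.1 to 971.9) and 165.7 (56.4 to 806.1).

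Others of the 15 code for proteins of epithelial surfaces and junctions. Gpa33, a cell surface antigen of gut epithelium, was at 0.294 to 0.385 CPM in the controls and 11.1 to 14.0 CPM in sgUba1 cells, and rose by 5.19 (SE 0.125, adjusted p = 9.80e-11). Lad1, a basement membrane protein, rose by 4.37 (SE 0.163), Cldn4, a tight junction protein, by 2.94 (SE 0.180), and Ctse, the protease cathepsin E, by 5.13 (SE 0.272). Map2, a microtubule-binding protein best known from neurons, rose by 6.12 (SE 0.218). Arhgap32 (6.28), Ablim1 (5.99), Itpkb (6.78), Tspan1 (4.22), Ak5 (3.53) and Samd9l (3.61) complete the set. All 15 passed the test, and the arms did not overlap, as the selection required. The function shared by some of these genes was noticed after their values were seen and was not tested.

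The 2 genes that were off were Vwa3a and Tdrd9, a helicase of the piRNA pathway in the germline. Vwa3a was at 13.2, 15.3, 13.6 and 11.8 CPM in the controls and 0.367, 0.480, 0.411 and 0.251 CPM in sgUba1 cells, and fell by 5.15 (SE 0.141, adjusted p = 2.83e-10). Tdrd9 fell by 4.32 (SE 0.182, adjusted p = 8.20e-09). The arms did not overlap for either gene, as the selection required.

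**Figure D3:**
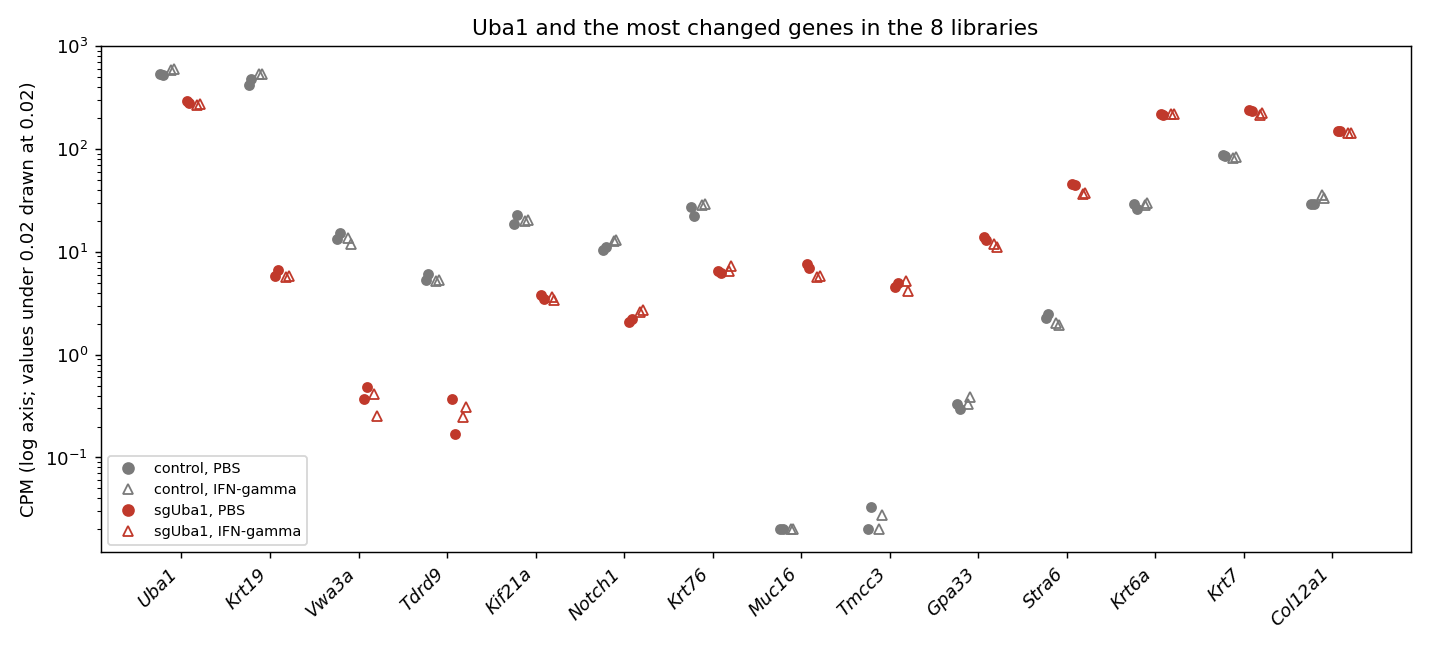
Level of Uba1 and of 13 of the most changed genes in each of the 8 libraries, in CPM on a log axis (values under 0.02 are drawn at 0.02); grey is control and red sgUba1, circles PBS and open triangles IFN-γ. The arms do not overlap for any gene shown, as the selection required for those on or off in sgUba1 cells. Genes named for the largest changes or smallest adjusted p were also required not to overlap within each treatment. Uba1, between 269 and 295 CPM in sgUba1 cells, changes far less than Krt19 or Muc16.

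Keratins, the intermediate filament proteins of epithelia, moved strongly in both directions. Of 16 tested, 6 rose and 6 fell. Krt19, a keratin of simple and ductal epithelium, was at 416 and 482 CPM in PBS controls and 536 and 541 CPM in IFN-γ controls. In sgUba1 cells it was at 5.78, 6.68, 5.73 and 5.80 CPM. It was the largest decrease among the named genes, with a log2 fold change of −6.36 (SE 0.092, adjusted p = 8.25e-13).

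Krt6a, a keratin of stressed and wounded epithelium, went the other way. It was at 26.3 to 29.7 CPM in the controls and 212 to 220 CPM in sgUba1 cells, a rise of 2.93 (SE 0.048, adjusted p = 1.23e-12). Krt7 rose from between 80.9 and 87.7 CPM to between 214 and 238 CPM (1.42, SE 0.041). Krt8 and Krt18, which pair in simple epithelia, rose by 1.84 (SE 0.12) and 3.07 (SE 0.333), both from low levels. Krt76 fell by 2.01 (SE 0.078), from between 22.5 and 29.4 CPM to between 6.205 and 7.34 CPM.

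Among collagens 3 of 15 tested rose and 5 fell, among laminins 1 of 9 rose and 4 fell, among claudins 3 of 8 rose and 2 fell, and among WNT and NOTCH genes 7 of 29 rose and 5 fell, so none of these lists moved one way. Col12a1, a fibril-associated collagen, rose from 29.0 to 36.0 CPM in the controls to 143 to 151 CPM (2.20, SE 0.063, adjusted p = 3.26e-10). Stra6, the receptor for vitamin A-binding protein, rose by 4.23 (SE 0.067), Igfbp5, which binds insulin-like growth factors, by 1.83 (SE 0.058), Selenop, which carries selenium, by 2.68 (SE 0.084), Npy, a neuropeptide, by 2.48 (SE 0.072), and Arfgef3 by 1.95 (SE 0.064). The laminin chain Lamb3 rose by 2.55 (SE 0.149) and Lamb1 fell by 1.78 (SE 0.135). The claudin Cldn9 fell by 1.34 (SE 0.078).

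Among the decreases were several regulators. Notch1, a receptor in cell fate decisions, was at 10.4, 11.04, 12.7 and 13.1 CPM in the controls and 2.09, 2.23, 2.60 and 2.71 CPM in sgUba1 cells, and fell by 2.30 (SE 0.080, adjusted p = 2.03e-09). Sox9, a transcription factor of prostate and other progenitors, fell by 1.27 (SE 0.051), and Ehf, an epithelial ETS factor, by 1.23 (SE 0.060). Kif21a, a kinesin, fell by 2.52 (SE 0.084), Fat2, an atypical cadherin, by 2.20 (SE 0.113), Rbms3, an RNA-binding protein, by 3.04 (SE 0.181), and Nrbp2 by 1.89 (SE 0.149). The linker histone H1f0 fell by 1.45 (SE 0.051) and Aldh2, which clears acetaldehyde, by 1.44 (SE 0.055). All remained called after centring, but H1f0, in the run on chromosome 15, dropped in size to −0.90.

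Several of these genes also separated one of the lines from untreated Myc-CaP cells. Krt6a, at 26.9 and 24.01 CPM in untreated cells, was near the control line, and Kif21a, at 22.5 and 22.8 CPM, was too. Vwa3a, at 1.15 and 0.940 CPM, and Notch1, at 2.81 and 3.82 CPM, were nearer the sgUba1 line. Krt19, at 128 and 122 CPM, lay between the lines. Over the 572 genes changed by at least 2-fold, the control line was nearer to untreated cells in 272 (47.6%) and the sgUba1 line in 300, by mean log2 CPM without IFN-γ. The control line was nearer in 42.7% of the 398 that rose and 58.6% of the 174 that fell. Over all 6007 called genes it was nearer in 2316 (38.6%) and the sgUba1 line in 3691. The untreated cells came from another experiment, so these distances also hold any batch difference.

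Interferon genes leaned to higher values. IFN-γ binds the receptor IFNGR1 and IFNGR2, and the kinases JAK1 and JAK2 then pass the signal on, which induces IRF1, the IFN-γ-inducible GTPases that act against intracellular pathogens, and genes that load peptides onto MHC class I. The list of GTPases has 23 members, of which 21 were in the table and 12 passed the count filter. Of these 12 tested, 10 rose and 0 fell, with a median log2 fold change of 2.30, against 0.00020 over all genes. The filter keeps a gene with enough counts in a single group of libraries. A member could thus enter through the group where it was high, and the count that rose may partly follow from this. The list of MHC class I and peptide loading has 26 members, of which 15 were in the table and tested, and 13 of these rose and 1 fell (median 0.60). Of 49 type I IFN-stimulated genes 32 were tested, and 21 rose and 1 fell (median 0.52), with the same limit. Fitted within each treatment, 29.7% of all genes were called with PBS (16.2% higher, 13.6% lower) and 39.4% with IFN-γ (17.0% higher, 22.4% lower). Of the GTPases 4 rose with PBS (median 0.62) and 10 with IFN-γ (median 2.30), and of the MHC class I list 9 rose with PBS (median 0.43) and 13 with IFN-γ (median 0.88). Of the 12 GTPases, 4 had no overlap between the arms in each treatment. The GTPase median depended on low counts, at 0.31 over members with at least 10 counts in every library and 0.79 on the log2(TPM + 1) scale. After centring the GTPases and the MHC class I list still had 10 and 13 members that rose, and the stimulated genes 21. The other members of the MHC class I list, the heavy chain genes H2-K1 and H2-D1 among them, were not analysed here.

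The GTPases were close to absent without IFN-γ. Igtp was at 0.037 and 0.065 CPM in PBS controls and 2.46 and 2.72 CPM in IFN-γ controls. In sgUba1 cells it was at 0.310 and 0.254 CPM with PBS and 22.1 and 20.8 CPM with IFN-γ. Within each treatment both sgUba1 libraries lay above both controls, and the log2 fold change was 3.02 (SE 0.118, adjusted p = 5.04e-09). Irgm2 rose by 2.45 (SE 0.130), Tgtp1 by 2.19 (SE 0.136) and Gbp2 by 2.67 (SE 0.183), while Gbp2 without IFN-γ was at 0 to 0.056 CPM in both lines.

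The promoters of such genes are known for elements that respond to interferon, called GAS and ISRE. In RefSeq promoters on GRCm38.p6, 250 bases before to 50 after the start, the GAS-like letters TTCNNNGAA and the ISRE-like motif, a pair of GAAA with any 2 bases between, were searched on both strands. They stood in 9.55% and 3.99% of all promoters, and in 5 and 9 of the 10 GTPase genes with a promoter in the table. For the MHC class I list they stood in 1 and 3 of 12, and for the type I IFN-stimulated genes in 6 and 10 of 23. The promoters of Tap1 and Psmb9 and another promoter of Irf1 held neither. Igtp, Gbp2 and Irf1 are shown as genes that were higher with IFN-γ in sgUba1 cells, chosen after their values were seen, with the matches in capitals.
Igtp: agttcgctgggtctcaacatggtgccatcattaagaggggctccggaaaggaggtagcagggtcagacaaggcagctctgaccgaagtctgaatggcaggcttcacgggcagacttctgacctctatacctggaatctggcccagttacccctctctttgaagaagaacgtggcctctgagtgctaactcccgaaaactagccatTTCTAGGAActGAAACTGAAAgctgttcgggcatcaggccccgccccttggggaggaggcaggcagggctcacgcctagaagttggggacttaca
Gbp2: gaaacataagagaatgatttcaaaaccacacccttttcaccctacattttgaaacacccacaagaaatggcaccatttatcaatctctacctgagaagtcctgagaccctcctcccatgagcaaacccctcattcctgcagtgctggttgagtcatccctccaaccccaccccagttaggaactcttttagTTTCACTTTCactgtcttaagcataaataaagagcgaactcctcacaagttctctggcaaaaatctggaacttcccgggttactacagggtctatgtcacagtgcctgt
Irf1: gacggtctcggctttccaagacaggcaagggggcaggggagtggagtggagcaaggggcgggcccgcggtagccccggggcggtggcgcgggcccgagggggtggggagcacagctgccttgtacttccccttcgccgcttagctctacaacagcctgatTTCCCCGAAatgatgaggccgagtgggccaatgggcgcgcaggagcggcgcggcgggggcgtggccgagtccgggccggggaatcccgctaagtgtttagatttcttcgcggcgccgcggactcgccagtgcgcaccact
They lie on the plus strand at chr11:58199306-58199605, chr3:142620413-142620712 and chr11:53769764-53770063. Igtp holds both motifs side by side, Gbp2 the ISRE-like motif read on the other strand, and Irf1 the GAS-like letters. A match is a description of the letters and not of binding.

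Genes that cut, carry and present peptides rose over a wider range of levels. The immunoproteasome subunits Psmb8 and Psmb9 rose by 2.60 (SE 0.218) and 2.71 (SE 0.234). The peptide transporter Tap1 was at 0.442 and 0.784 CPM in PBS controls, 3.02 and 2.42 CPM in IFN-γ controls, 1.47 and 1.47 CPM in sgUba1 cells with PBS and 10.7 and 10.5 CPM with IFN-γ, a rise of 1.78 (SE 0.165, adjusted p = 5.63e-06). Tap2 rose by 1.02 (SE 0.082) and Tapbp by 0.60 (SE 0.052). B2m, the light chain of MHC class I, was at 58.6, 66.5, 61.1 and 61.4 CPM in the controls and 85.4, 83.5, 101.8 and 99.6 CPM in sgUba1 cells, a rise of 0.58 (SE 0.061, adjusted p = 1.54e-05) without overlap. The member that fell, the chaperone Pdia3 on chromosome 2, was at −0.22 (adjusted p = 0.00209) and at 0.09 after centring. Among the type I IFN-stimulated genes, Parp14 rose by 2.53 (SE 0.104) and Dtx3l by 0.59 (SE 0.055), while Ifitm2 fell by 0.20 (adjusted p = 0.0032) and was at 0.04 after centring.

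**Figure D4:**
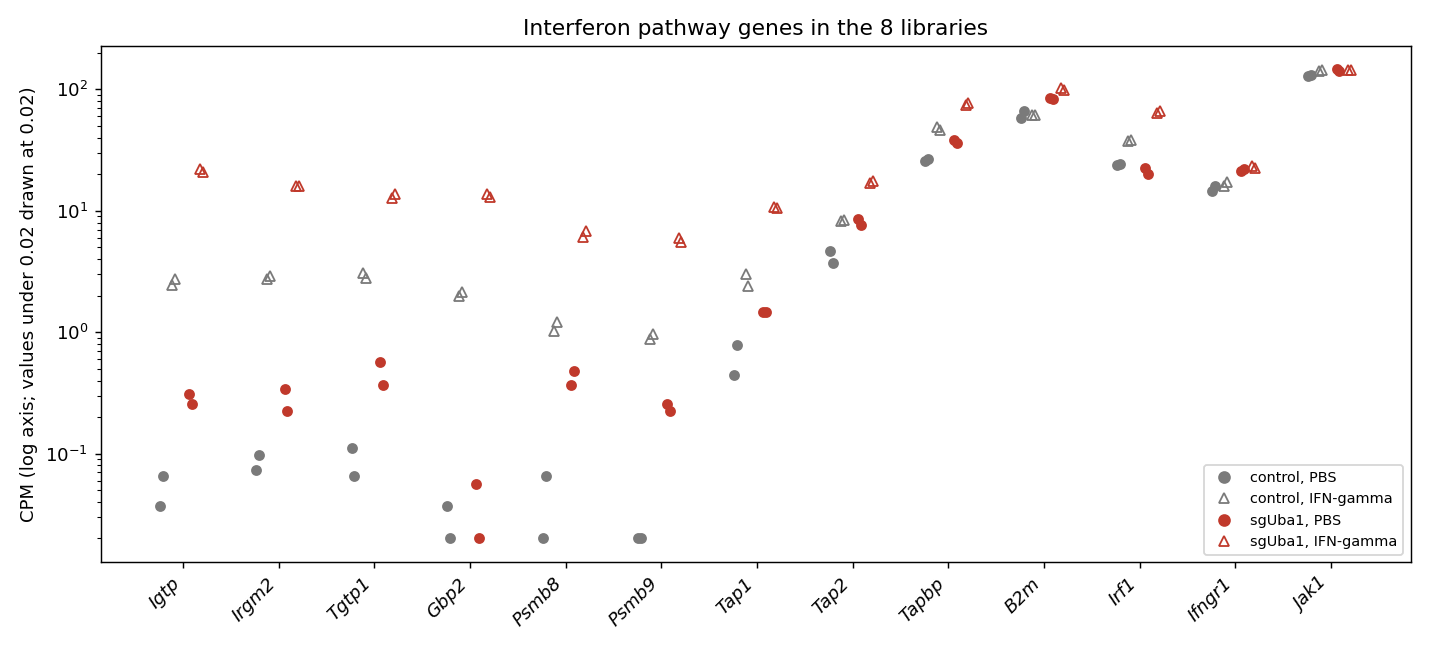
Level of 13 genes of the IFN-γ pathway and of antigen presentation in each of the 8 libraries, in CPM on a log axis (values under 0.02 are drawn at 0.02); grey is control and red sgUba1, circles PBS and open triangles IFN-γ. Igtp reaches 20.8 to 22.1 CPM in sgUba1 cells with IFN-γ against 2.46 to 2.72 CPM in controls, while Jak1 lies within 129 to 146 CPM in all 8 libraries.

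At the head of the pathway the changes were smaller. Ifngr1 rose by 0.48 (SE 0.060, adjusted p = 5.22e-05), from 14.6 to 17.1 CPM in the controls to 21.1 to 23.4 CPM. Jak2 rose by 0.46 (SE 0.041, adjusted p = 4.07e-06). Jak1 transcripts were at 128.6 to 143.9 CPM in the controls and 141.4 to 146.2 CPM in sgUba1 cells, which overlapped, with a log2 fold change of 0.08 (SE 0.042, adjusted p = 0.146). Without sgUba1 IFN-γ replicate 1 it was 0.12 (adjusted p = 0.0461). Ifngr2 (−0.06), Stub1 (−0.02), which encodes an E3 ligase, and the chemokine Cxcl9 (−0.15) were not called. With only the IFN-γ libraries Stub1 was called, at −0.13 (adjusted p = 0.012), and without IFN-γ it was at 0.08. Cxcl10 was too low to test, with 3, 0, 2 and 1 counts in the controls and 1, 3, 17 and 6 in sgUba1 cells.

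IFN-γ itself changed 603 genes in control cells (3.88%), 470 higher (3.03%) and 133 lower (0.856%), and 443 in sgUba1 cells (2.85%), 186 higher (1.20%) and 257 lower (1.65%).

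Whether the sgUba1 effect differed between PBS and IFN-γ was tested as an interaction, in which 720 genes (4.64%) passed, 103 toward higher values with IFN-γ (0.663%) and 617 toward lower (3.97%). That count rested on single libraries. It was 1972 without PBS control replicate 1 and 2622 without PBS control replicate 2, and between 14 and 103 without any one of the other libraries. Irf1 and Irgm1 passed in each of the 8 fits that left out a library. Irf1 was at 23.997 and 24.5 CPM in PBS controls, 22.6 and 20.3 CPM in sgUba1 cells with PBS, and 37.6 and 38.1 against 64.1 and 66.8 CPM with IFN-γ, an interaction of 0.96 on the log2 scale (adjusted p = 8.90e-04). Its additive effect was not called (0.34, adjusted p = 0.0941), but was without control PBS replicate 1 (0.0401), control PBS replicate 2 (0.0446) or sgUba1 PBS replicate 2 (0.018). Irgm1 had an interaction of 1.09 (adjusted p = 0.00130). For Igtp (0.69, adjusted p = 0.757) a difference between the treatments was not detectable at its low PBS counts.

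Genes of the integrated stress response fell. This programme is run by ATF4 when translation initiation is limited, and raises genes of amino acid import and synthesis. Of 37 tested members 28 fell and 1 rose, with a median of −0.36, and 28 still fell after centring. Chac1, which breaks down glutathione, was at 12.6, 12.5, 12.03 and 10.9 CPM in the controls and 3.02, 3.33, 3.34 and 3.07 CPM in sgUba1 cells, and fell by 1.91 (SE 0.083, adjusted p = 1.09e-08). Aldh1l2, of mitochondrial folate metabolism, fell by 1.79 (SE 0.095), the cystine transporter Slc7a11 by 1.28 (SE 0.061), the kinase-like Trib3 by 1.24 (SE 0.107) and the cysteinyl-tRNA synthetase Cars by 0.89 (SE 0.043). Atf4 itself, in the run on chromosome 15, was at −0.62 (adjusted p = 4.19e-07) and at −0.11 after centring (adjusted p = 0.0671). The member that rose was the amino acid transporter Slc7a3 (1.03, SE 0.227), at a low level.

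Glycolysis and hypoxia genes and mitosis genes also leaned to lower values. Of 35 glycolysis and hypoxia genes 25 fell and 3 rose (median −0.31). Eno2, an enolase, fell by 1.60 (SE 0.114), Pdk1, which holds back pyruvate dehydrogenase, by 0.98 (SE 0.060), Vegfa, a growth factor of vessels, by 0.97 (SE 0.081) and the glucose transporter Slc2a1 by 0.45 (SE 0.055), whereas the hypoxia factor Epas1 rose by 0.45 (SE 0.074). Of 50 mitosis genes 34 fell and 2 rose (median −0.21), and 31 still fell after centring. The larger declines Aurka (−0.70), Tpx2 (−0.61) and Bub1b (−0.51) are on chromosome 2 and were at −0.32, −0.28 and −0.20 after centring, each still called, and Pbk rose by 0.26 (SE 0.046).

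Heat shock and early response genes showed the same lean with smaller changes. Of 23 cytosolic heat shock genes 11 fell and 2 rose (median −0.14), and after centring 6 fell and 1 rose (median −0.07). The small heat shock protein Hspb1 was at 145.6 to 163.0 CPM in the controls and 67.7 to 80.3 CPM in sgUba1 cells, and fell by 1.08 (SE 0.060, adjusted p = 8.52e-08). Hsph1 fell by 0.65 (SE 0.040). The regulator Hsf1, in the run on chromosome 15, was at −0.62 and no longer called after centring (−0.08, adjusted p = 0.329). Of 32 AP-1 and EGR genes 16 fell and 2 rose (median −0.17), among them Fosl1 (−0.76), Junb (−0.68) and Egr1 (−1.52). Of 24 cholesterol synthesis genes 13 rose and 3 fell (median 0.17), with Insig1 at 0.74 and Cyp51 at 0.73, and of 74 oxidative phosphorylation genes 24 rose and 7 fell (median 0.10), or 15 and 3 after centring.

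The drug TAK-243 offered a second way of blocking UBA1 in the same parental line, at 50 nM for 18 h, with and without IFN-γ in 8 libraries of their own. There 10649 of 14551 genes were called (73.2%), 36.0% higher and 37.2% lower. Uba1 RNA rose by 0.29 with the drug (adjusted p = 4.62e-08). Genes called in both experiments numbered 4900, of which 2516 went the same way and 2384 opposite ways. Of the genes tested in both experiments, these 2516 were 42.9% of the 5864 called with sgUba1 and 24.3% of the 10360 called with TAK-243. Over all genes called with sgUba1, 51.0% had the same sign with TAK-243, and over all genes tested in both 50.8%.

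The difference between the sgUba1 and TAK-243 effects was tested in one fit of all 16 cell libraries. It passed in 9841 of 15708 genes (62.6%), with 33.0% higher and 29.6% lower with sgUba1. Of the 23 heat shock genes 18 differed toward lower values with sgUba1, and the list's median was −0.14 here and 1.01 with TAK-243. For AP-1 and EGR genes 25 of 32 differed that way, with medians of −0.17 and 1.03. Egr1 rose by 7.12 with TAK-243, a difference of −8.62 (adjusted p = 9.34e-19). Hspb1 rose by 3.51, a difference of −4.58 (adjusted p = 4.41e-22). The GTPases differed the other way in 9 of 12, with a median of 2.30 here, which rests on members near absent without IFN-γ, and 0.39 with TAK-243. Igtp, which fell by 1.08 with the drug, differed by 4.10 (adjusted p = 3.79e-12). Jak1 RNA rose by 1.499 with TAK-243, a difference of −1.40 (adjusted p = 2.41e-16). The integrated stress response did not part in this way. With TAK-243, 24 of its 36 tested members fell and 8 rose, with medians of −0.36 here and −0.42 with the drug. Of 37 members in the joint fit, 14 differed toward higher and 13 toward lower values with sgUba1. An 18 h drug treatment and grown-out sublines also differ in time, and the part of time was not tested.

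**Figure D5:**
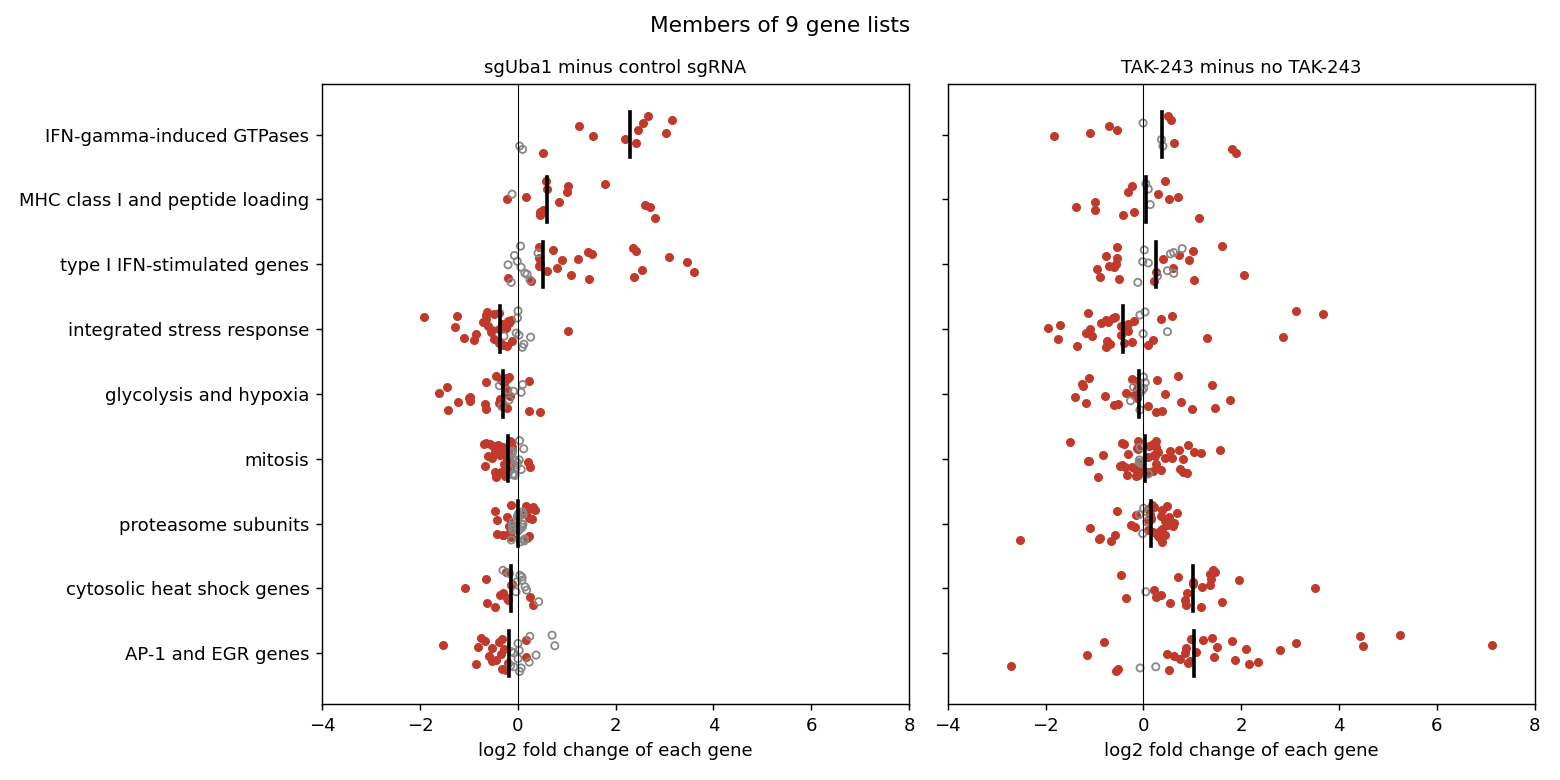
Log2 fold change of each tested gene (points) on 9 gene lists (rows), for sgUba1 against control cells (left) and for TAK-243 against no TAK-243 (right); filled red points had an adjusted p under 0.05, open grey points did not, and black bars are medians. The IFN-γ-induced GTPases lie to the right in sgUba1 cells (median 2.30, or 0.31 over members with at least 10 counts in every library), and the heat shock genes lie to the right with TAK-243 (median 1.01) but not with sgUba1 (−0.14).

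Myc-CaP tumors labelled sgUba1 gave a further reading of the lines' largest changes. Before the results, 4 of these 7 tumors lacked the lower Uba1 RNA seen in the sgUba1 cells. RNA does not show how much intact UBA1 protein they held. Uba1 was at 321, 322 and 339 CPM in the 3 control tumors and, in tumors 1 to 7, at 196, 201, 209, 374, 363, 369 and 385 CPM. Tumors 4 to 7 thus lay above every control. Krt19 was at 235, 1035 and 302 CPM in the control tumors and at 4.02, 55.1, 13.8, 7.81, 10.1, 2.87 and 4.81 CPM in the tumors labelled sgUba1. Vwa3a was at 26.6, 32.3 and 26.0 CPM in the controls and between 0.431 and 0.998 CPM in all 7, and Krt76 was at 1.47 to 1.62 CPM in the controls and 0 in all 7. For these 3 genes, all 7 tumors lay below all 3 controls, as the sgUba1 cells did, whether or not Uba1 was low. Over 15 genes changed in the cells and read in these tumors, all 7 tumors lay below all 3 controls for 5 of the 7 that fell in cells, Chac1 and Sox9 being the others. For the 8 that rose in cells, among them Stra6, Gpa33, Krt6a, Krt7 and Muc16, the tumors overlapped the controls in every case. The share of all genes without overlap in these tumors was not computed, so these counts have no background. Kif21a was not of that kind, at 36.5, 17.3 and 30.3 CPM in the controls, between 3.88 and 16.8 CPM in tumors 1 to 3 and between 39.1 and 83.0 CPM in tumors 4 to 7.

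Over all genes, 492 of 16202 were called in these tumors (3.04%), 1.15% higher and 1.89% lower. Of 255 called in both the tumors and the cells, 206 went the same way, or 3.49% of the genes called in cells and 47.0% of those called in tumors and tested in both. Over all genes called in the cells, 59.6% had the same sign in these tumors, and over all genes tested in both 55.8%. Without tumors 4 to 7 a single gene, Vwa3a, was called, with 2964 genes at an unadjusted p under 0.05. Tumors hold host cells, whose part in these counts was not tested. In tumors of B16-BL6, a mouse melanoma line, Uba1 was at 408, 456 and 414 CPM in the controls and 208, 221, 227 and 247 CPM in the tumors labelled sgUba1. There 127 of 17539 genes were called (0.724%; 0.268% higher, 0.456% lower), and of 27 called in both, 15 went the same way as in the cells, Uba1 among them. The same sign was seen for 53.7% of all genes called in the cells, and for 51.65% of all genes tested in both. Krt19 did not exceed 0.874 CPM in any B16-BL6 tumor.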

How the data were processed

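Gene tables deposited by the authors hold expected counts (estimated, so not always whole) and TPM, which is scaled for gene length. The submitters' processing notes name kallisto and mm10. The labels describe poly-A capture and the paper's methods ribosomal RNA removal. Expected counts of the 8 cell libraries were rounded to whole numbers, filtered with filterByExpr, scaled by TMM and fitted with edgeR 4.0.16 in R 4.3.3 (quasi-likelihood test, IFN-γ as covariate, Benjamini-Hochberg threshold 0.05). TPM served only as an alternative with limma 3.58.1, and DESeq2 1.42.0 was another. The design had named counts of reads. Each SE was derived from the test, as the size of the log2 fold change divided by the square root of its F statistic. For genes near absent in an arm it is only approximate. CPM uses TMM factors within each experiment. Positions came from GENCODE M21 on GRCm38, for 15507 of 15530 tested genes. Depth and the spread of replicates are given above, and counting intervals cover counting error only.

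The libraries, gene lists and tests were chosen with earlier results of these data known. Genes were named from a fixed set (Uba1, Jak1, Stub1, Ifngr1, Cxcl9, Cxcl10, H2-K1, H2-D1, Irf1), the 12 largest changes and the 12 smallest adjusted p each way (called, non-overlapping within each treatment, average log2 CPM 1 or more), up to 3 called members of each list each way, and genes within 2 Mb of Uba1. Some results are not reported here. Other genes were chosen after their values were seen. The fit was tested on simulated data first.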

Additional observations from a re-analysis of the deposited data

Results flagged for a closer look

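In the 7 Myc-CaP tumors labelled sgUba1, Krt19 was at 55.1 CPM in tumor 2, far from the other 6, which had 2.87 to 13.8 CPM. It was still below the lowest control tumor. Such gaps arise by chance in about 1 in 20 groups.

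The sgUba1 effect differed between IFN-γ and PBS, by the interaction test, for 10 genes named in the text. It was larger with IFN-γ for Irf1 (0.96) and Irgm1 (1.09), and these passed in all 8 fits that left out a library. For Tnfaip2 (−1.37), Col12a1 (−0.32), Slc7a11 (0.30), Pdk1 (0.32), Trp53 (−0.28), Slc2a1 (0.27) and Vegfa (0.42), the interaction passed in 2 of the 8 fits each. Vim was at −0.44, and was not followed through those fits. Tnfaip2, an IFN-γ- and TNF-induced gene that was among the largest decreases (−2.53), was at 2.10 and 1.60 CPM in PBS controls and 6.08 in both IFN-γ controls, against 0.536 to 0.767 CPM in sgUba1 cells.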

How the results depend on the processing

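The number of genes called (6007) was 3321 with only the libraries without IFN-γ (1730 higher, 1591 lower), 1074 with Bonferroni adjustment (492 and 582) and 517 against a 1.5-fold threshold. Leaving out each library gave 4959 to 6557, 2444 to 3084 higher and 2445 to 3473 lower, and Uba1 at −1.05 to −0.95. Replicate numbers were shared between groups, but deviations of replicate 1 correlated at −0.026 to 0.334 between groups, so they were not taken as pairs, and a replicate block called 5848. The interaction gave 14 to 2622 genes when a library was left out, and 617 with DESeq2. Same-direction counts moved to 1622 for TAK-243 with only genes outside the shifted runs, to 670 for Myc-CaP tumors and 92 for B16-BL6 tumors with DESeq2, to 9 for B16-BL6 tumors outside the runs, and to 1 for Myc-CaP tumors without those with high Uba1. The cause was not tested. Centring on neighbours turned Pdia3 to 0.087 and Ifitm2 to 0.039. For single named genes, 2228 values stayed on their side of the threshold, 20 of them uncalled values of 9 genes whose sign turned, while 78 lost the call and 16 gained one. Medians of lists and runs moved by more than the replicate spread in 140 cases and by less in 247. The centring, the restriction to genes outside the runs, the omission of tumors, and the alternatives for the interaction and for the TAK-243 difference were added after the data were seen. Depth limits the GTPases without IFN-γ, which had few counts.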
